A study of Mus musculus with 12 samples.

Results

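The 45 genes described here are interferon-stimulated antiviral effectors, genes that cells switch on in response to interferon and whose products act against viruses or tune that action. They were taken as a list of gene symbols, by a rule that names no measured value, but the list was drawn up with earlier results of these data known. All 45 were found among the 25556 genes of the joined tables, 44 by gene name and Ifit3b by its gene ID, ENSMUSG00000062488, which the tables list under an older name. Each had enough reads over all 12 libraries together to pass the filter on low counts and be tested.

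Expression was measured by RNA sequencing of brain tissue from male C57BL6 mice, in 12 libraries that fell into 4 groups of 3. In adolescence, on each day from postnatal day 30 to 44, mice were injected intraperitoneally with 5 mg/kg of THC, the main psychoactive compound of cannabis, or with its vehicle, 8% Tween-80 in saline. As adults, at postnatal day 70, they received 0.33 mg/kg of LPS intraperitoneally, a component of the outer membrane of bacteria that immune cells sense through TLR4, or saline, and brain was collected 24 h later. Veh_Ctrl denotes vehicle then saline, THC_Ctrl THC then saline, Veh_LPS vehicle then LPS, and THC_LPS THC then LPS. The part of the brain is not given in the sources used here, and the labels leave unstated whether each library was made from its own animal. The spread behind every p-value is that between libraries and may in part be technical.

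Type I interferons bind a receptor made of IFNAR1 and IFNAR2, whose kinases activate transcription factors, STAT2 among them. With IRF9 these form a complex that binds interferon-stimulated response elements (ISREs) in the promoters of its target genes. The products of those genes cut or sequester viral RNA, stop translation, hold back virus entry or budding, or attach the ubiquitin-like protein ISG15 to other proteins. In the brain, microglia, astrocytes, endothelial cells and neurons can all respond to interferon, and LPS is known to induce interferon beta in macrophages through TLR4.

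The promoter windows of 4 members carry the ISRE letters in print below and are shown because they had the smallest p for LPS averaged over both pretreatments among the members that hold the motif. Each runs from 160 bases before to 30 bases after the start site in RefSeq (GRCm38.p6), read 5′ to 3′ on the strand of the gene, and the capitals mark the ISRE core. The core was searched as 2 copies of GAAA with any 2 bases between them, or of TTTC for the other strand, and overlapping copies were both kept. Rsad2 lies at chr12:26456423-26456612 (minus strand), Ifitm3 at chr7:141010715-141010904 (minus strand), Ifit1 at chr19:34640729-34640918 (plus strand) and Bst2 at chr8:71537443-71537632 (minus strand).
Rsad2: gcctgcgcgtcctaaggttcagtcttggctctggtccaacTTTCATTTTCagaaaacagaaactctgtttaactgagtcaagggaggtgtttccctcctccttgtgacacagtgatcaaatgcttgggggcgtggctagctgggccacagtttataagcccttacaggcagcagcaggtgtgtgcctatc
Ifitm3: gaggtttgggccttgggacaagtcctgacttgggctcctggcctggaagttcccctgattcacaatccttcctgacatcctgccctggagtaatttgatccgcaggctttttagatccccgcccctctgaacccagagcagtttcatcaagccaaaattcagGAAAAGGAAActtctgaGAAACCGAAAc
Ifit1: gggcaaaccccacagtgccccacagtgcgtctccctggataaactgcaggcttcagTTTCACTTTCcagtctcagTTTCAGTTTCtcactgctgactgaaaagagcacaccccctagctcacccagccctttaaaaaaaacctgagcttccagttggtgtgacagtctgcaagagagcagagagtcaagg
Bst2: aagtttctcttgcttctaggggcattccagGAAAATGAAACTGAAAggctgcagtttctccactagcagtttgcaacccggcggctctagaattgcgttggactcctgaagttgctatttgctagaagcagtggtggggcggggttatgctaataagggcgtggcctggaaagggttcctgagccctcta
Rsad2 holds 1 core, and the other 3 genes hold 2 each, which in Bst2 share their middle GAAA.

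Of the 45 members, 35 had a promoter entry, and the motif was sought from 250 bases before to 50 bases after their start sites. The ISRE core was found in 17 of these 35 (48.6%, exact Clopper-Pearson 95% interval 31.4 to 66.0%), against 3.99% of the 27025 genes in the table. A shorter motif, TTC and GAA with any 3 bases between them, the core of the gamma-activated site (GAS), was found in 6 of 35 (17.1%, interval 6.56 to 33.7%), against 9.55% of genes. Its interval holds the share over all genes, and no test was run on either motif. The members were chosen as interferon-stimulated genes, so the higher share of the ISRE core is no independent finding of these data. Both intervals treat genes as independent, though near copies such as Ifit3 and Ifit3b are among them. A match describes the letters only, and a member without one may carry a variant of the motif or lie outside the window. Isg15 held 3 overlapping cores 66 to 78 bases upstream of its start, and Ifit1 held 2 cores 85 and 104 bases upstream. Members with and without the motif both responded to LPS. Of the 17 with an ISRE core, 15 were called higher with LPS averaged over pretreatments, with a median log2 fold change of 1.48. Of the 18 without one 12 were called, with a median of 1.06. Among the 10 without a promoter entry 7 were called, with a median of 1.33. Over all genes tested 1.34% were called higher in that comparison. Whether the response differs between these classes was not tested. Trim21 and Oas3 were the 2 with a core that were not called, while Oasl1, Ifi44, Oasl2 and Lgals3bp were called without one.

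**Figure D1:**
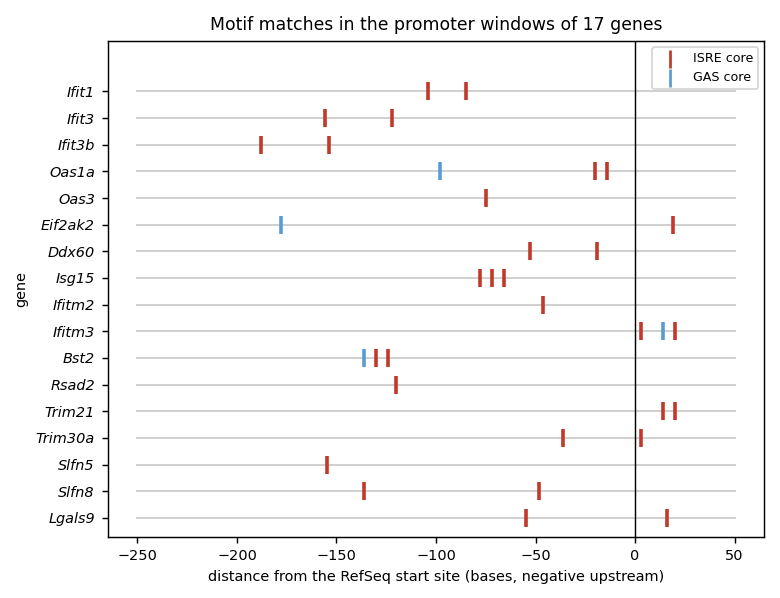
Positions of the ISRE core (red) and the GAS core (blue) in the promoter windows of the 17 members that hold an ISRE core; the x axis is the distance in bases from the RefSeq start site, with upstream negative. The cores of Isg15 lie 66 to 78 bases upstream, and those of Ifitm3 lie 3 and 20 bases downstream of the start.

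Gene counts of the saline libraries totalled 24.3 to 26.4 M reads. The Veh_LPS libraries held 25.5 to 44.7 M reads and the THC_LPS libraries 16.7 to 22.4 M, so THC_LPS was the shallowest group. Veh_LPS replicate 2 held 4134 CPM (read counts scaled to library size) of pituitary hormone transcripts, against 0.864 to 14.7 CPM in the saline groups. Veh_LPS replicates 1 and 3 held 3.57 and 2.02 CPM of them and the THC_LPS libraries 2.27 to 7.58 CPM, so only that library stood out. THC_LPS replicate 3 showed a trend of read counts with GC content, with a Spearman correlation across genes of -0.744 against -0.109 to 0.274 in the other 11 libraries. Neuronal markers summed to 2167 to 3454 CPM and oligodendrocyte markers to 3344 to 4978 CPM over all libraries, which bears out the label of brain. Markers of monocytes and neutrophils summed to 1.10 to 2.28 CPM in Veh_Ctrl, 1.19 to 2.79 in THC_Ctrl, 4.02 to 6.82 in Veh_LPS and 3.19 to 6.95 in THC_LPS. Of these 6 markers 2 were called higher with LPS averaged over pretreatments (Ly6c2 and Plac8), and 1 had no read in THC_Ctrl replicate 2. Endothelial markers summed to 197 to 223 CPM with saline and 238 to 309 CPM with LPS, with 2 of 5 called. Microglial markers summed to 188 to 232 CPM with saline and 215 to 260 CPM with LPS, with 0 of 6 called by edgeR and 3 at an unadjusted p under 0.05. Those of border macrophages summed to 9.88 to 11.5 CPM with saline and 12.1 to 18.8 CPM with LPS, with 0 of 5 called and 4 at an unadjusted p under 0.05. Over all genes 1.34% were called higher in that comparison, and 9.19% were higher at an unadjusted p under 0.05. Lymphocyte markers did not exceed 0.653 CPM in any library, and each library had 1 to 4 of the 5 at 0 reads. In monocytes and neutrophils, endothelium and border macrophages the sum was higher in every LPS library than in every saline library, as it was for the members, while for microglia the saline and LPS libraries overlapped. Single markers of these lists could fall within 1 pretreatment. The lowest log2 fold changes were -0.984 for monocytes and neutrophils (after THC), -0.125 for endothelium and -0.297 for border macrophages (both after vehicle). On average over pretreatments the lowest were 0.053, 0.137 and 0.048. Choroid plexus markers summed to 352 to 657 CPM in Veh_Ctrl and 463 to 648 CPM in THC_Ctrl. In Veh_LPS their sum was 593 to 612 CPM and in THC_LPS 304 to 568 CPM. The 2 LPS groups did not overlap on this sum, and 0 of the 3 markers were called between them. Astrocyte markers summed to 991 to 1082 CPM with saline and 1060 to 1154 CPM with LPS, with 0 of 4 called on average. The part of these cell types in the results was not tested. In bulk tissue, fewer cells of a type and less RNA per cell cannot be told apart.

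At rest the members differed widely in level. Levels of different genes are compared here in FPKM, the deposited values scaled by gene length and library total. In Veh_Ctrl, Ifi27, a mitochondrial interferon-induced protein, led with a mean of 18.0 FPKM. Ifitm3 (11.8 FPKM) and Ifitm2 (10.2 FPKM), membrane proteins that hinder virus entry, came next, followed by Cmpk2 (8.74 FPKM), a mitochondrial nucleotide kinase, and Lgals3bp (6.98 FPKM), a secreted galectin-binding glycoprotein. These 5 genes made up 57.7% of the members' summed FPKM. Mx1 (0.104 FPKM) and Oas3 (0.0312 FPKM) stood at the low end. In Veh_LPS the order at the top became Ifitm3 (46.9 FPKM), Ifi27 (31.5), Lgals3bp (20.2), Ifitm2 (17.3) and Bst2 (16.6), with Oas3 still lowest at 0.0816 FPKM. Reads of the 45 genes together summed to 199.5 to 207.5 CPM in the 3 Veh_Ctrl libraries, 197 to 227 CPM in THC_Ctrl, 356 to 510 CPM in Veh_LPS and 300.0 to 409 CPM in THC_LPS. Every LPS library was above every saline library on this sum, and the 2 LPS groups overlapped.

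After vehicle, members of all 10 role groups described below rose with LPS. In edgeR's quasi-likelihood test 23 of 45 were called higher at an adjusted p under 0.05 and 0 lower, against 0.622% of the 17208 genes tested called higher and 0% lower. At an unadjusted p under 0.05, 39 members were higher (4.63% of all genes) and 0 were lower (2.82%). The 3 Veh_LPS values all exceeded the 3 Veh_Ctrl values in 40 members (6.96% of all genes) and all lay below them in 0 (9.07%). The log2 fold change was above 0 in 43 members (43.8% of all genes). The median log2 fold change over the members was 1.47, against -0.04 over all genes, and 35 members were above 1 (2.52% of all genes). The number called depended on the tool and on single libraries. DESeq2 called 36 members higher (0.97% of the genes it tested) and limma-voom 40 (5.18%). Limma-voom also called 5.83% of all genes lower, so it called far more genes than the main test. In edgeR the number was 12 without Veh_Ctrl replicate 1 (0.187% of all genes) or Veh_LPS replicate 3 (0.244%), 13 without Veh_Ctrl replicate 2 (0.221%) and 15 without Veh_LPS replicate 2 (0.279%). The calls of 11 members held in all 22 alternatives, namely Bst2, Ifit3, Ifitm3, Isg15, Lgals3bp, Lgals9, Oasl2, Rnf213, Rsad2, Rtp4 and Slfn2. The share of all genes whose calls held in every alternative was not taken, so whether this is particular to the members cannot be told.

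After THC, 2 of 45 members were called higher, Ifit1 and Samd9l, and 0 lower, against 0.0988% and 0.0116% of all genes. At an unadjusted p under 0.05, 37 were higher (9.78% of all genes) and 0 lower (9.61%), and all THC_LPS values exceeded all THC_Ctrl values in 35 (9.83% of all genes) and lay below them in 0 (13.5%). The median log2 fold change was 0.99, against -0.01 over all genes, all 45 were above 0 (49.2% of all genes), and 21 were above 1 (2.3%). The number of calls depended on the setting here too, for members and for all genes. DESeq2 called 25 members higher (2.08% of the genes it tested), limma-voom with sample weights 22 (3.16%) and a fit on values with the GC trend removed 15 (0.614%). These 3 fits called 0.655%, 2.51% and 0.24% of genes lower, with 0 members among them. With only the 2 THC groups in the fit 0 members were called (0.00609%). The number was also 0 without Veh_Ctrl replicate 3, Veh_LPS replicate 2 or 3 or any 1 of the THC_Ctrl libraries. It was 10 without Veh_LPS replicate 1 (0.273% of all genes) and 6 without THC_LPS replicate 2 (0.165%). In the settings that left out 1 library and called 0 members, 0 to 0.0624% of all genes were called higher.

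Averaged over both pretreatments, 34 of 45 members were called higher with LPS and 0 lower, against 1.34% and 0.174% of all genes. At an unadjusted p under 0.05, 43 were higher (9.19% of all genes) and 0 lower (9.41%). The log2 fold change was above 0 in all 45 (45.8% of all genes) and above 1 in 32 (1.69%), with a median of 1.33. The number called ranged from 28 to 42 over 22 alternative settings and thresholds. The 42 came from limma-voom with sample weights, which called 10.3% of all genes higher and 13.7% lower. Over the 21 alternatives at the same threshold, 0.721 to 10.3% of all genes were called higher. This average uses the same libraries as the 2 comparisons above, so it adds no independent evidence. The 11 members not called were Cmpk2, Herc6, Ifi27, Ifit2, Mx1, Oas3, Parp12, Phf11d, Tor3a, Trim21 and Uba7, of which Uba7, Phf11d and Mx1 had adjusted p-values of 0.0508, 0.0520 and 0.0561.

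**Figure D2:**
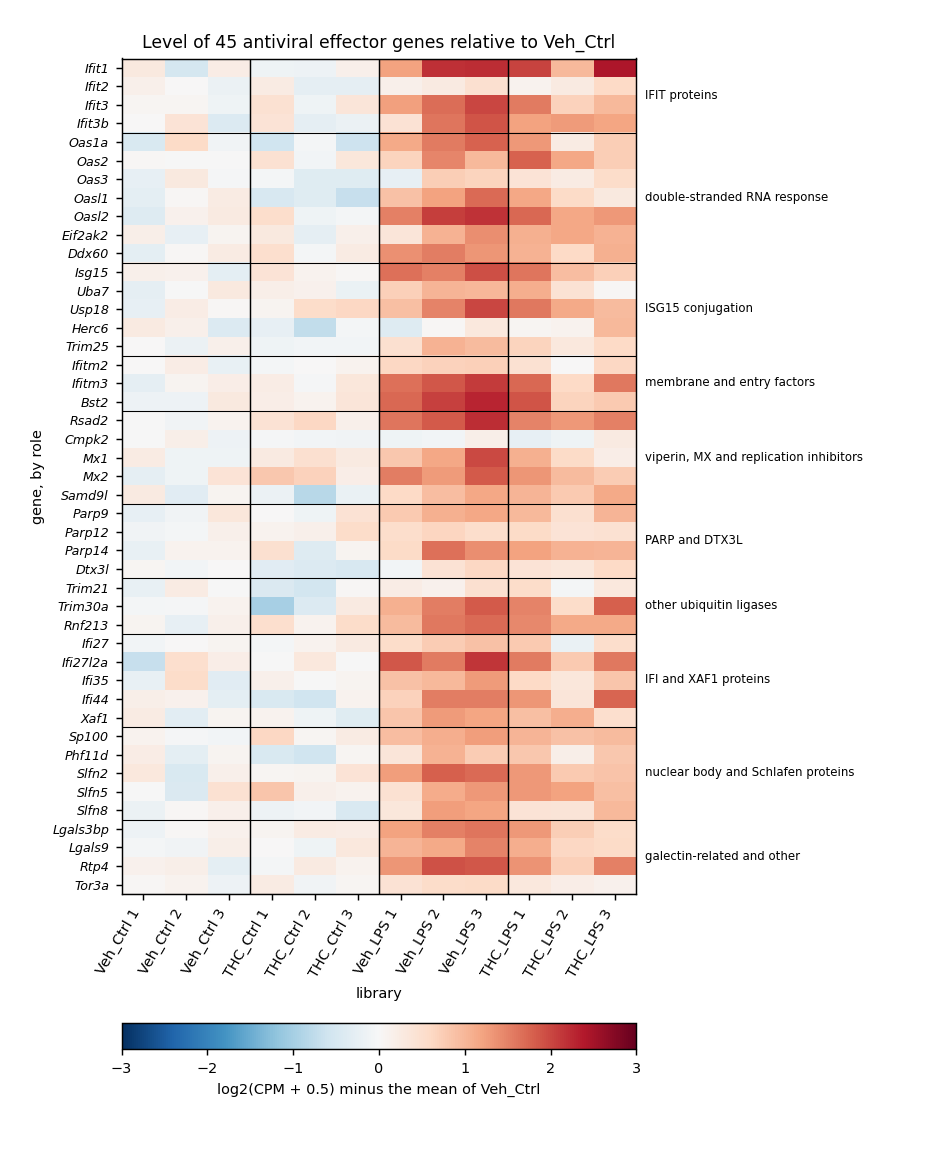
Level of each of the 45 members (y axis, grouped by role) in each of the 12 libraries (x axis), as log2(CPM + 0.5) minus the mean of Veh_Ctrl, from blue (lower) to red (higher). The LPS libraries are red for most genes, Veh_LPS replicate 1 and THC_LPS replicate 2 are the palest of their groups, and Cmpk2 shows little colour anywhere.

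**Figure D3:**
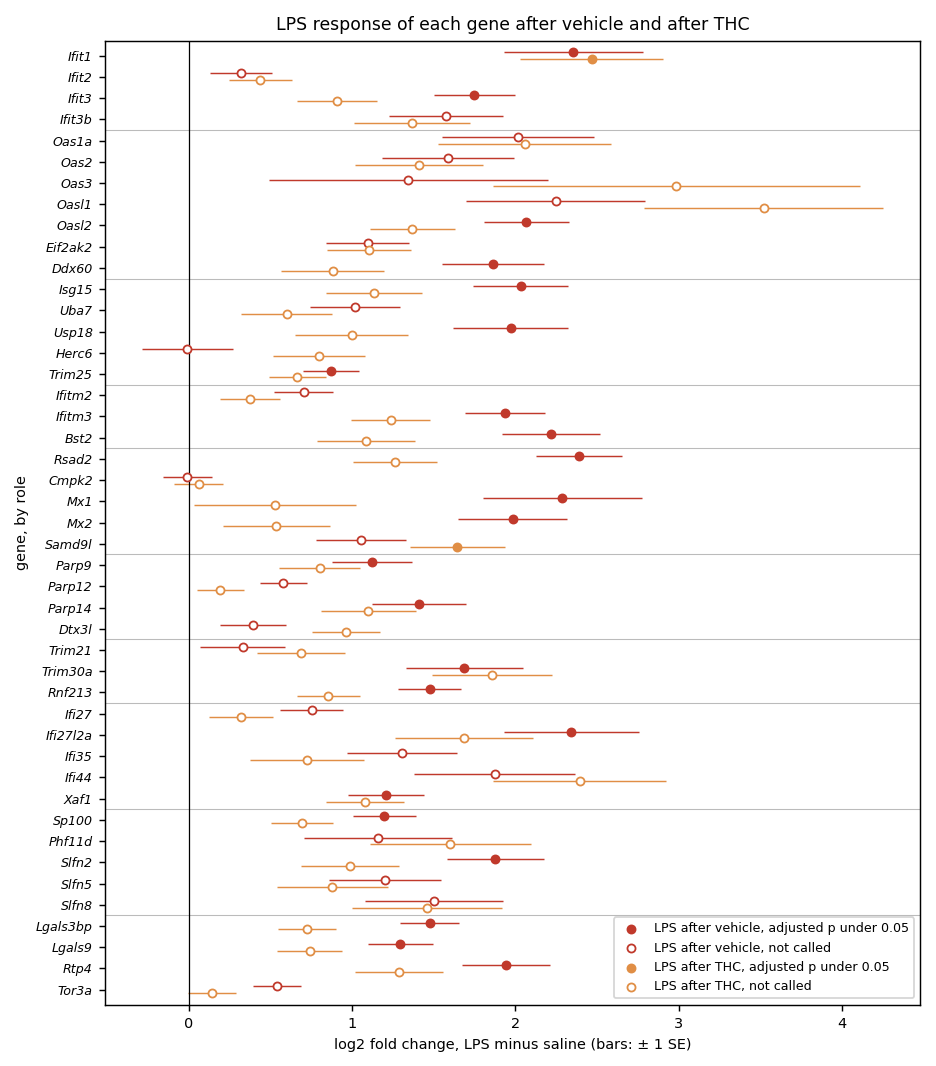
Log2 fold change with LPS (x axis, bars ± 1 SE) of each member (y axis) after vehicle (red) and after THC (orange); filled points had an adjusted p under 0.05 in edgeR. The 23 filled red points and the 2 filled orange points, Ifit1 and Samd9l, all lie to the right of 0.

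Among the 4 IFIT genes, whose proteins bind viral RNA through its 5′ end, 2 rose after vehicle, 1 after THC and 3 on average. They lie together on chromosome 19. Ifit1 measured 1.26, 0.497 and 1.16 CPM in Veh_Ctrl, 0.809, 0.780 and 1.08 in THC_Ctrl, 2.82, 6.03 and 6.08 in Veh_LPS and 5.34, 2.31 and 7.23 in THC_LPS. All LPS values exceeded all saline values in both pretreatments, and Veh_LPS replicate 1 and THC_LPS replicate 2 were the lowest of their groups. Ifit1 rose by a log2 fold change of 2.35 ± 0.43 (log2 fold change ± SE) after vehicle (adjusted p = 0.0144, edgeR) and of 2.47 ± 0.44 after THC (adjusted p = 0.0398). Ifit3 stood at 5.69, 5.72 and 4.98 CPM in Veh_Ctrl, 7.65, 4.97 and 7.12 in THC_Ctrl, 13.4, 18.4 and 23.2 in Veh_LPS and 17.1, 9.04 and 11.1 in THC_LPS. Its groups did not overlap under either pretreatment. Ifit3 rose by a log2 fold change of 1.75 ± 0.25 after vehicle (adjusted p = 0.00245) and had a log2 fold change of 0.91 ± 0.25 after THC (adjusted p = 0.130). Ifit3 and its near copy Ifit3b share sequence (51.2% of the 50-base words of Ifit3), so reads may have been split between them and the level of either is uncertain. Ifit3b had a log2 fold change of 1.47 ± 0.25 averaged over pretreatments, at which it was called (adjusted p = 0.00456). Ifit2, whose Veh_Ctrl libraries held 6.85 to 8.76 CPM and Veh_LPS libraries 8.76 to 11.0 CPM, was not called in any of the comparisons (log2 fold change 0.38 ± 0.14 on average, adjusted p = 0.164).

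The 7 genes of the response to double-stranded RNA include the OAS enzymes, which make the 2′-5′ oligoadenylate that activates RNase L, and their relatives OASL1 and OASL2. They include also Eif2ak2, which encodes the kinase PKR that stops translation, and Ddx60, a helicase. After vehicle 2 rose, Oasl2 and Ddx60, and on average 6 of the 7 did. Oasl2 showed 2.47, 3.73 and 4.19 CPM in Veh_Ctrl, 5.14, 3.04 and 3.23 in THC_Ctrl, 10.7, 15.9 and 16.9 in Veh_LPS and 12.3, 8.17 and 9.09 in THC_LPS. All 6 LPS libraries were above all 6 saline libraries. Oasl2 rose by a log2 fold change of 2.07 ± 0.26 after vehicle (adjusted p = 0.00161) and had a log2 fold change of 1.37 ± 0.26 after THC, short of the threshold (adjusted p = 0.0623). Oasl1 had 0.157, 0.331 and 0.457 CPM in Veh_Ctrl, 0.0809, 0.123 and 0 in THC_Ctrl, 0.991, 1.36 and 2.11 in Veh_LPS and 1.31, 0.699 and 0.489 in THC_LPS. Oasl1 was read very little in THC_Ctrl, with 2, 3 and 0 reads, so its fold change after THC rests on few reads. It was called on average (log2 fold change 2.88 ± 0.46, adjusted p = 0.00281) but not after vehicle (log2 fold change 2.25 ± 0.55, adjusted p = 0.101) or after THC (log2 fold change 3.52 ± 0.73, adjusted p = 0.0736). Ddx60 rose by a log2 fold change of 1.86 ± 0.31 after vehicle (adjusted p = 0.00805). Eif2ak2, Oas1a and Oas2 were called on average, with log2 fold changes of 1.10 ± 0.18 for Eif2ak2 and 2.04 ± 0.35 for Oas1a. Oas1a shares 57.6% of its 50-base words with Oas1g, so its level is uncertain. Oas3, at 0 to 0.569 CPM in all libraries, was not called (log2 fold change 2.17 ± 0.71 on average, adjusted p = 0.136).

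ISG15 is a ubiquitin-like protein, and 5 members attach it, remove it or belong with it: Isg15 itself, Uba7, its activating enzyme, Herc6, its main ligase in mice, Trim25, a ligase that acts in RIG-I signalling, and Usp18, which removes ISG15 and dampens the interferon receptor. Isg15, Usp18 and Trim25 rose after vehicle and on average. Isg15 held 1.45, 1.45 and 0.955 CPM in Veh_Ctrl, 1.86, 1.40 and 1.31 in THC_Ctrl, 5.04, 4.55 and 6.21 in Veh_LPS and 4.87, 2.84 and 2.40 in THC_LPS. The LPS libraries were all above the saline libraries, and THC_LPS replicate 1 lay within the Veh_LPS range while the other two THC_LPS libraries lay below it. Isg15 rose by a log2 fold change of 2.03 ± 0.29 after vehicle (adjusted p = 0.00270) and had a log2 fold change of 1.13 ± 0.29 after THC (adjusted p = 0.124). Trim25 measured 8.87, 7.74 and 9.92 CPM in Veh_Ctrl, 7.97, 8.25 and 8.31 in THC_Ctrl, 12.5, 18.7 and 17.4 in Veh_LPS and 14.4, 11.0 and 13.5 in THC_LPS. The saline and LPS ranges did not meet, though the gap was small. Trim25 rose by a log2 fold change of 0.87 ± 0.17 after vehicle (adjusted p = 0.0275), and after THC its log2 fold change was 0.66 ± 0.17 (adjusted p = 0.125). Usp18 rose by a log2 fold change of 1.97 ± 0.35 after vehicle (adjusted p = 0.0128). Uba7 was not called, at 2.16 to 3.41 CPM in Veh_Ctrl and 4.76 to 6.06 CPM in Veh_LPS. Herc6 was not called either, with a log2 fold change of -0.01 ± 0.28 after vehicle and 0.80 ± 0.28 after THC (adjusted p = 0.173), and it ranged from 4.84 to 10.1 CPM among the 6 saline libraries and from 6.30 to 16.8 CPM among the 6 LPS libraries.

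Of the 3 membrane factors, Ifitm3 and Bst2 rose after vehicle and all 3 rose on average. Ifitm3 (chr7:141009586-141010770) encodes a protein that blocks fusion of viruses in endosomes. Ifitm3 stood at 6.60, 8.61 and 9.38 CPM in Veh_Ctrl, 9.55, 7.88 and 10.4 in THC_Ctrl, 26.6, 31.1 and 36.4 in Veh_LPS and 27.9, 12.6 and 25.2 in THC_LPS. All LPS libraries were above all saline libraries, and THC_LPS replicate 2 was the lowest of the 6. Ifitm3 rose by a log2 fold change of 1.94 ± 0.24 after vehicle (adjusted p = 0.00161) and had a log2 fold change of 1.24 ± 0.24 after THC (adjusted p = 0.0731). Bst2 (chr8:71534264-71537437) encodes tetherin, which holds budding virus particles to the cell surface. Bst2 showed 2.36, 2.36 and 3.36 CPM in Veh_Ctrl, 3.16, 2.87 and 3.58 in THC_Ctrl, 9.95, 12.6 and 15.0 in Veh_LPS and 11.1, 4.50 and 4.99 in THC_LPS. THC_LPS replicate 1 lay within the Veh_LPS range, and the other two THC_LPS libraries lay below it and above THC_Ctrl. Bst2 rose by a log2 fold change of 2.22 ± 0.30 after vehicle (adjusted p = 0.00203), and after THC its log2 fold change was 1.08 ± 0.30 (adjusted p = 0.132). Ifitm2 was called on average only (log2 fold change 0.54 ± 0.13, adjusted p = 0.0494). It shares 48.5% of its 50-base words with another annotated gene, so its level is uncertain.

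Rsad2 encodes viperin, a radical enzyme that makes a chain-terminating nucleotide, and had the smallest p of all members in the comparison after vehicle. Rsad2 had 0.903, 0.828 and 1.04 CPM in Veh_Ctrl, 1.42, 1.68 and 1.08 in THC_Ctrl, 3.81, 4.55 and 6.12 in Veh_LPS and 3.50, 3.01 and 3.52 in THC_LPS. The groups did not overlap with LPS under either pretreatment. Rsad2 rose by a log2 fold change of 2.39 ± 0.26 after vehicle (adjusted p = 0.000635) and had a log2 fold change of 1.26 ± 0.26 after THC (adjusted p = 0.0736). Its neighbour Cmpk2 is often induced together with it. The genes lie at chr12:26442753-26456452 (Rsad2, minus strand) and chr12:26469204-26479835 (Cmpk2, plus strand). Cmpk2 held 28.3, 32.2 and 25.6 CPM in Veh_Ctrl, 27.7, 26.8 and 26.6 in THC_Ctrl, 26.1, 27.1 and 32.4 in Veh_LPS and 23.9, 26.1 and 34.6 in THC_LPS. All 4 groups overlapped. Cmpk2 had a log2 fold change of -0.01 ± 0.15 after vehicle (adjusted p = 0.991) and 0.06 ± 0.15 after THC (adjusted p = 0.842), with signs that turned under some settings, and its promoter window held no ISRE core.

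Samd9l encodes a factor that restricts poxvirus replication and translation. Samd9l measured 2.43, 1.41 and 2.08 CPM in Veh_Ctrl, 1.66, 0.862 and 1.62 in THC_Ctrl, 3.17, 4.13 and 4.95 in Veh_LPS and 4.45, 3.71 and 4.84 in THC_LPS. All LPS libraries exceeded all saline libraries. Samd9l rose by a log2 fold change of 1.64 ± 0.29 after THC (adjusted p = 0.0398), and after vehicle its log2 fold change was 1.05 ± 0.28 (adjusted p = 0.149). The 2 MX genes belong to a family of dynamin-like GTPases known to trap viral nucleocapsids. Mx2 stood at 0.628, 0.745 and 1.33 CPM in Veh_Ctrl, 1.90, 1.72 and 1.08 in THC_Ctrl, 3.45, 2.80 and 4.39 in Veh_LPS and 2.91, 2.14 and 1.81 in THC_LPS. Mx2 was higher in Veh_LPS than in Veh_Ctrl with no overlap, while THC_LPS and THC_Ctrl overlapped. It rose by a log2 fold change of 1.98 ± 0.33 after vehicle (adjusted p = 0.00805) and had a log2 fold change of 0.54 ± 0.33 after THC (adjusted p = 0.364). Mx1 showed 0.510, 0.290 and 0.291 CPM in Veh_Ctrl, 0.526, 0.698 and 0.539 in THC_Ctrl, 0.991, 1.40 and 2.91 in Veh_LPS and 1.31, 0.786 and 0.489 in THC_LPS. Mx1 rose by a log2 fold change of 2.29 ± 0.49 after vehicle (adjusted p = 0.0442), a call that was lost in 10 of 22 alternatives, and had a log2 fold change of 0.53 ± 0.49 after THC (adjusted p = 0.564). C57BL6 mice are known to carry a defective Mx1 gene, so an RNA change says nothing of the protein. For Mx2 too only RNA was measured, so whether a working protein is made is not known from these data.

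**Figure D4:**
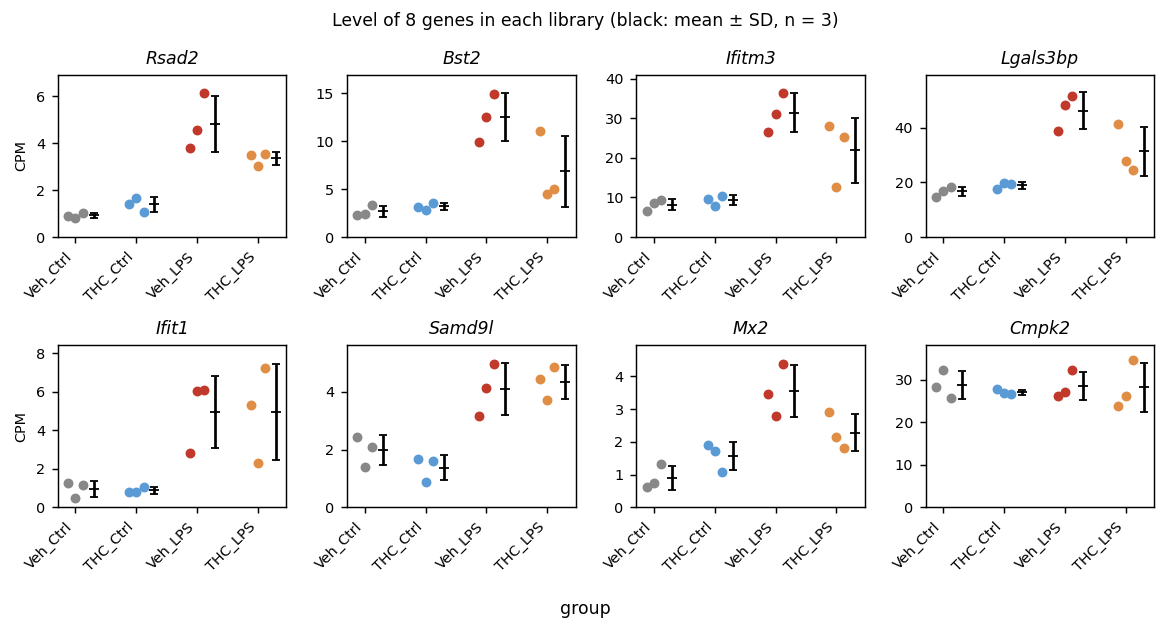
CPM (y axis) of 8 members in each library of the 4 groups (x axis), with the mean ± SD (n = 3) in black. Rsad2, Bst2, Ifitm3 and Lgals3bp were higher in every LPS library than in every saline library, whereas Cmpk2 stayed between 23.9 and 34.6 CPM in all 12.

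Among PARP9, PARP12, PARP14 and DTX3L, which handle ADP-ribose and ubiquitin marks, 2 of 4 rose after vehicle and 3 on average. Parp14 had 2.28, 3.02 and 3.03 CPM in Veh_Ctrl, 4.05, 2.01 and 2.96 in THC_Ctrl, 4.32, 9.74 and 8.03 in Veh_LPS and 7.01, 6.24 and 6.11 in THC_LPS. Saline and LPS libraries did not overlap. Parp14 rose by a log2 fold change of 1.41 ± 0.29 after vehicle (adjusted p = 0.0341) and had a log2 fold change of 1.10 ± 0.29 after THC (adjusted p = 0.126). Parp9 held 2.32, 2.61 and 3.70 CPM in Veh_Ctrl, 2.83, 2.55 and 3.96 in THC_Ctrl, 5.27, 6.48 and 6.97 in Veh_LPS and 6.06, 4.10 and 6.21 in THC_LPS. The LPS libraries were all above the saline libraries. Parp9 rose by a log2 fold change of 1.12 ± 0.24 after vehicle, just inside the threshold (adjusted p = 0.0497), and had a log2 fold change of 0.80 ± 0.25 after THC (adjusted p = 0.149). Parp9 and Dtx3l overlap at their starts on opposite strands of chromosome 16, and strandedness is not given in the sources used here, so reads there cannot be told apart. Dtx3l was called on average only (log2 fold change 0.68 ± 0.14, adjusted p = 0.0261). Parp12 was not called (log2 fold change 0.39 ± 0.10 on average, adjusted p = 0.0748).

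Of 3 further ubiquitin ligases, Rnf213 and Trim30a rose after vehicle and on average, and Trim21, a cytosolic antibody receptor, did not pass the test. Rnf213, a giant ligase that coats intracellular pathogens, is the longest of these genes. Rnf213 measured 14.9, 11.9 and 15.9 CPM in Veh_Ctrl, 20.2, 15.3 and 21.0 in THC_Ctrl, 27.6, 43.6 and 47.2 in Veh_LPS and 38.9, 31.7 and 31.5 in THC_LPS. All LPS libraries were above all saline libraries. Rnf213 rose by a log2 fold change of 1.47 ± 0.19 after vehicle (adjusted p = 0.00175) and had a log2 fold change of 0.86 ± 0.19 after THC (adjusted p = 0.0832). Trim30a stood at 2.47, 2.53 and 2.82 CPM in Veh_Ctrl, 1.05, 1.85 and 3.23 in THC_Ctrl, 6.03, 8.53 and 10.6 in Veh_LPS and 8.19, 4.02 and 10.2 in THC_LPS. The saline and LPS libraries did not overlap under either pretreatment. Trim30a rose by a log2 fold change of 1.69 ± 0.36 after vehicle (adjusted p = 0.0416), and after THC its log2 fold change was 1.86 ± 0.37 (adjusted p = 0.0736). Trim21 had a log2 fold change of 0.51 ± 0.19 on average (adjusted p = 0.171).

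The IFI and XAF1 group holds small interferon-induced proteins and XAF1, which promotes apoptosis. Ifi27l2a and Xaf1 rose after vehicle, and 4 of 5 rose on average. Ifi27l2a showed 0.236, 1.20 and 0.872 CPM in Veh_Ctrl, 0.688, 0.985 and 0.693 in THC_Ctrl, 3.85, 3.03 and 4.75 in Veh_LPS and 3.03, 1.57 and 3.08 in THC_LPS. Each LPS library exceeded each saline library. Ifi27l2a rose by a log2 fold change of 2.34 ± 0.41 after vehicle (adjusted p = 0.0121) and had a log2 fold change of 1.69 ± 0.42 after THC (adjusted p = 0.113). Xaf1 had 3.85, 2.44 and 3.41 CPM in Veh_Ctrl, 3.48, 2.87 and 2.35 in THC_Ctrl, 6.11, 8.41 and 7.90 in Veh_LPS and 6.35, 7.34 and 4.69 in THC_LPS. The saline and LPS ranges did not meet. Xaf1 rose by a log2 fold change of 1.21 ± 0.23 after vehicle (adjusted p = 0.0246) and had a log2 fold change of 1.08 ± 0.24 after THC (adjusted p = 0.0821). Ifi44 and Ifi35 were called on average, with log2 fold changes of 2.13 ± 0.36 and 1.02 ± 0.24. Ifi27, the highest member at rest in FPKM, was not called (log2 fold change 0.54 ± 0.14, adjusted p = 0.0650).

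Nuclear body protein SP100, PHF11D and the Schlafen proteins SLFN2, SLFN5 and SLFN8, which act on chromatin, RNA or lymphocyte quiescence, formed the next group of 5. Sp100 and Slfn2 rose after vehicle, and 4 rose on average. Sp100 held 3.65, 3.27 and 3.16 CPM in Veh_Ctrl, 5.38, 3.53 and 4.04 in THC_Ctrl, 6.78, 7.66 and 8.66 in Veh_LPS and 7.30, 6.64 and 6.99 in THC_LPS. The LPS libraries lay in a narrow band above the saline libraries. Sp100 rose by a log2 fold change of 1.20 ± 0.19 after vehicle (adjusted p = 0.00548) and had a log2 fold change of 0.69 ± 0.19 after THC (adjusted p = 0.130). Slfn2 measured 1.69, 0.787 and 1.45 CPM in Veh_Ctrl, 1.34, 1.36 and 1.85 in THC_Ctrl, 3.69, 5.57 and 5.21 in Veh_LPS and 3.86, 2.53 and 2.69 in THC_LPS. Saline and LPS did not overlap here either. Slfn2 rose by a log2 fold change of 1.88 ± 0.30 after vehicle (adjusted p = 0.00512) and had a log2 fold change of 0.99 ± 0.30 after THC (adjusted p = 0.149). Slfn8 and Slfn5 were called on average (log2 fold change 1.48 ± 0.31 and 1.04 ± 0.24), and Phf11d was not (log2 fold change 1.38 ± 0.34, adjusted p = 0.0520).

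The last 4 members are Lgals3bp, Lgals9, a galectin, Rtp4, a receptor transport protein that also restrains viral RNA replication, and Tor3a, a torsin. Lgals3bp, Lgals9 and Rtp4 rose after vehicle and on average. Lgals3bp stood at 14.8, 16.9 and 18.3 CPM in Veh_Ctrl, 17.5, 19.7 and 19.5 in THC_Ctrl, 38.8, 48.5 and 51.6 in Veh_LPS and 41.5, 28.0 and 24.5 in THC_LPS. Each LPS library was above each saline library, and THC_LPS replicate 1 lay within the Veh_LPS range while the other two lay below it. Lgals3bp rose by a log2 fold change of 1.47 ± 0.18 after vehicle (adjusted p = 0.00142) and had a log2 fold change of 0.73 ± 0.18 after THC (adjusted p = 0.106). Rtp4 showed 2.12, 2.24 and 1.45 CPM in Veh_Ctrl, 1.82, 2.42 and 2.08 in THC_Ctrl, 5.51, 8.57 and 8.25 in Veh_LPS and 5.64, 3.45 and 6.40 in THC_LPS. All 6 LPS values exceeded all 6 saline values. Rtp4 rose by a log2 fold change of 1.94 ± 0.27 after vehicle (adjusted p = 0.00219) and had a log2 fold change of 1.29 ± 0.27 after THC (adjusted p = 0.0736). Lgals9 rose by a log2 fold change of 1.30 ± 0.20 after vehicle (adjusted p = 0.00430). Tor3a did not pass the test, with a log2 fold change of 0.54 ± 0.15 after vehicle (adjusted p = 0.169) and 0.14 ± 0.15 after THC (adjusted p = 0.610).

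Adolescent THC alone left the members without a call. Between THC_Ctrl and Veh_Ctrl, edgeR called 0 of 45 members in either direction and 0% of all genes tested, and DESeq2 and limma-voom also called 0 members. A fit of only these 2 groups tested 43 members, so not every member passes the low-count filter without the LPS libraries. It called 0 members, against 0.0366% of all genes higher and 0.0183% lower. At an unadjusted p under 0.05, 1 member was higher (Mx2) and 2 were lower (Dtx3l and Oasl1), against 1.71% and 1.91% of all genes. The groups did not overlap for Mx1 and Rsad2, higher with THC (5.96% of all genes), and for Dtx3l and Oasl1, lower with THC (6.85%). The smallest p was that of Oasl1, with a log2 fold change of -2.15 ± 0.80 (unadjusted p = 0.0166, adjusted p = 1) on 4, 8 and 11 reads in Veh_Ctrl against 2, 3 and 0 in THC_Ctrl. The log2 fold change was above 0 in 28 members (47.2% of all genes) and above 1 in 0 (1.31%), with a median of 0.08 against -0.01 over all genes. Rsad2, at 1.08 to 1.68 CPM in THC_Ctrl against 0.828 to 1.04 CPM in Veh_Ctrl, had a log2 fold change of 0.59 ± 0.28 (adjusted p = 1).

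With LPS, THC pretreatment went with lower values for most members, but none passed the test. Between THC_LPS and Veh_LPS, edgeR called 0 of 45 in either direction and 0% of all genes, and DESeq2 and limma-voom called 0 members too. At an unadjusted p under 0.05, 11 members were lower (4.59% of all genes) and 0 higher (5.71%). These were Bst2, Ifit3, Ifitm3, Isg15, Lgals3bp, Lgals9, Mx1, Oasl2, Rsad2, Slfn2 and Tor3a. The log2 fold change was above 0 in 7 members (49.5% of all genes) and above 1 in 0 (1.09%), and its median was -0.32, against -0.00 over all genes; over 22 alternatives the median ran from -0.56 to -0.25, with 30 to 43 members below 0. The smallest p belonged to Lgals3bp, with a log2 fold change of -0.57 ± 0.18 (unadjusted p = 0.00513, adjusted p = 0.478). Bst2 followed with a log2 fold change of -0.88 ± 0.28 (adjusted p = 0.478), and Ifit1 had a log2 fold change of -0.02 ± 0.38. In 5 members all 3 THC_LPS values lay below all 3 Veh_LPS values (6.12% of all genes), namely Ddx60, Ifi35, Ifitm2, Rsad2 and Tor3a, and in 0 all lay above (5.61%). The members vary together between libraries, so these counts are not counts of separate events.

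The 3 THC_LPS libraries differed among themselves. Replicate 1 lay below the whole Veh_LPS range in 8 members and within it in 34, while replicate 2 lay below it in 30 and replicate 3 in 21. Averaged over the 45 genes, log2(CPM + 0.5) relative to Veh_Ctrl was 0.81, 1.22 and 1.37 in Veh_LPS replicates 1, 2 and 3, with a mean of 1.13 ± 0.29 (SD, n = 3). In THC_LPS it was 1.06, 0.62 and 0.88, with a mean of 0.86 ± 0.22 (SD, n = 3), so the groups overlapped. In THC_Ctrl it was 0.09, -0.07 and 0.07. Within Veh_LPS, replicate 1 was the lowest library in 40 of 45 members and replicate 3, the deepest of all at 44.7 M reads, was the highest in 33. Within THC_LPS, replicate 1, the shallowest at 16.7 M reads, was the highest in 24 and replicate 2 was the lowest in 26. These counts by library were not taken over all genes, so whether they are particular to the members cannot be told. The part of depth in these differences between libraries was not tested.

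**Figure D5:**
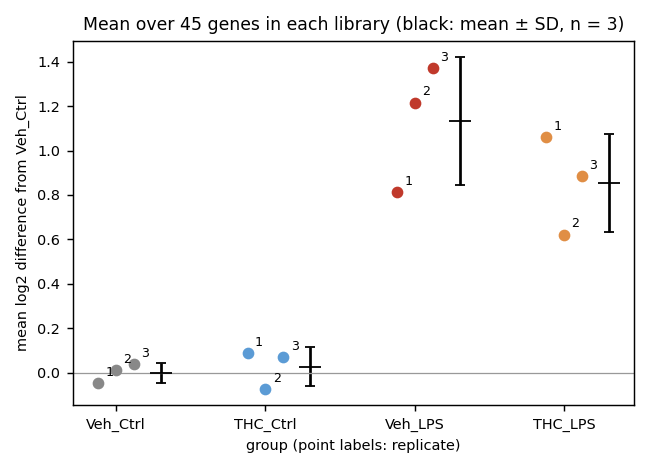
Mean over the 45 members of log2(CPM + 0.5) minus the mean of Veh_Ctrl (y axis) in each library of the 4 groups (x axis), with replicate numbers beside the points and the mean ± SD (n = 3) in black. Veh_LPS spans 0.81 to 1.37 and THC_LPS 0.62 to 1.06, so the LPS groups overlap, and both lie above every saline library.

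Whether the LPS response differed with pretreatment was tested by the interaction. EdgeR called 0 of 45 members and 0% of all genes in either direction, and DESeq2 and limma-voom called 0 members. At an unadjusted p under 0.05, 10 members had a smaller response after THC (2.71% of all genes) and 0 a larger one (4.07%). These were Bst2, Ddx60, Ifit3, Isg15, Lgals3bp, Mx1, Mx2, Rnf213, Rsad2 and Slfn2. The difference was above 0 in 14 members (49.9% of all genes) and above 1 in 2 (2.03%), and its median was -0.33 log2 units, against -0.00 over all genes. The smallest p was that of Mx2, whose response was -1.45 ± 0.47 log2 units different after THC (unadjusted p = 0.00683, adjusted p = 0.710), and Rsad2 followed with -1.13 ± 0.37 (unadjusted p = 0.00734). For both genes part of the difference lies between the saline groups. Mean CPM in THC_Ctrl and Veh_Ctrl was 1.57 and 0.901 for Mx2 and 1.39 and 0.923 for Rsad2. In THC_LPS and Veh_LPS the means were 2.29 and 3.55 for Mx2 and 3.345 and 4.825 for Rsad2. Differences ran from -1.76 in Mx1 to 1.64 in Oas3, the member with the fewest reads. Since no difference passed the test, a call after vehicle without a call after THC does not show that the responses differed, and these data do not show that they were alike.

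The interferon pathway upstream of the members was followed with a list of 48 genes, of which 42 had a row and 39 were tested. EdgeR called 4 of the 39 higher after vehicle, 1 after THC and 6 on average, and 0 lower in each, against the shares of all genes given above. No ligand gene had enough reads to be tested. Ifnb1, Ifna1, Ifna2 and Ifna4 were not analysed here, and Ifng had 5 reads in Veh_LPS replicate 3 and 0 in each other library. Of the 6 receptor genes 0 were called, with 1 lower at an unadjusted p under 0.05 on average. Ifnar1 and Ifnar2, which encode the type I receptor, had log2 fold changes of -0.04 ± 0.07 and -0.13 ± 0.12 on average.

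Irf7, the factor that amplifies type I interferon production, was the gene with the smallest p of all 17208 after vehicle. Irf7 had 1.77, 2.65 and 1.91 CPM in Veh_Ctrl, 2.63, 3.04 and 2.35 in THC_Ctrl, 17.5, 19.1 and 19.6 in Veh_LPS and 16.9, 7.73 and 9.38 in THC_LPS. All LPS values exceeded all saline values, and THC_LPS lay below Veh_LPS without overlap. Irf7 rose by a log2 fold change of 3.15 ± 0.27 after vehicle (adjusted p = 4.75e-05, edgeR) and of 2.08 ± 0.26 after THC (adjusted p = 0.00510); the log2 fold change of THC_LPS over Veh_LPS was -0.73 ± 0.23 (adjusted p = 0.478). Zbp1, a sensor of Z-form nucleic acid that triggers cell death, rose by a log2 fold change of 3.51 ± 0.56 after vehicle (adjusted p = 0.00556) from 0.207 to 0.236 CPM in Veh_Ctrl to 1.19 to 4.19 CPM in Veh_LPS. Ddx58, which encodes the RNA sensor RIG-I, rose by a log2 fold change of 1.14 ± 0.19 (adjusted p = 0.00710). Its relative Dhx58 was called on average (log2 fold change 1.15 ± 0.21, adjusted p = 0.00695), with 1.14 to 1.70 CPM in Veh_Ctrl and 2.86 to 4.02 CPM in Veh_LPS. Of the subunits of the ISRE-binding complex, Irf9 rose by a log2 fold change of 0.92 ± 0.18 after vehicle (adjusted p = 0.0278) and Stat2 had a log2 fold change of 0.23 ± 0.10 on average (adjusted p = 0.232). Stat2 held 32.5 to 40.7 CPM in Veh_Ctrl and 36.7 to 50.3 CPM in Veh_LPS. Of the 5 genes of negative feedback other than Usp18, edgeR called 0 on average, with 1 higher at an unadjusted p under 0.05.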

How the data were processed

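RNA from mouse brain was sequenced in 12 libraries, 3 in each of 4 groups, assigned by the sample titles. Per the file headers, the authors deposited raw gene counts, the input of every test, and FPKM, used to compare levels between genes. Recomputed from the counts, the gene lengths and the column totals, the deposited FPKM came out equal. Build mm10, HTSeq, DESeq2 and STAR 2.5 are named, without roles, in the submitters' processing notes. Not given in the sources used here are the strandedness, the annotation version and the treatment of multi-mapping reads. Of the members, 16 are overlapped by another annotated gene, 13 of them on the opposite strand, and 8 share over 10% of their 50-base words with another gene, so their counts are less certain.

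The main test was edgeR 4.0.16 (R 4.3.3): quasi-likelihood with robust dispersions, 12 libraries in 4 group means, TMM scaling, filterByExpr (17208 of 25556 genes kept) and Benjamini-Hochberg adjustment over the kept genes, with calls at an adjusted p under 0.05. The SE of a log2 fold change is its size divided by the square root of the F statistic and is approximate. CPM are TMM-scaled. The mean over members used log2(CPM + 0.5) and has no test. A 2-sided p is meant throughout. The alternatives used DESeq2 1.42.0 and limma 3.58.1, other scaling, filters and thresholds, GC and length trends removed (loess, span 0.5, with a GC value for 99.3% of genes tested), the replicate number as a block, and each library left out. The procedure was also run on simulated counts with changes in Veh_LPS only. These held no GC trend, outlier library or variation shared between genes, so that run cannot speak to such features. No 2 libraries of a group were alike within sampling noise (smallest chi-square per degree of freedom 10.5). Same-numbered libraries did not deviate together: of 18 pairs 0 had a correlation over 0.1, so the numbers were not taken as pairs.

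The members, role groups and other lists were chosen with earlier results of these data known. Per role group, values per library are given for up to 2 members with the smallest p for LPS averaged over pretreatments, for members called after THC or in a THC comparison, and otherwise for the member with the smallest p there. Of the pathway list, values are given for the 6 smallest p and for the receptors, ligands and factors of the main axis, of which some are not reported here. Values per library of Cmpk2 and Mx1 were added after they were seen.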

Additional observations from a re-analysis of the deposited data

How the results depend on the processing

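No member was called for THC without LPS, THC with LPS or the interaction under any alternative. For LPS after vehicle, 23 members were called higher (0.622% of all genes). DESeq2 gave 36 (0.97%), limma-voom 40 (5.18%) and an adjusted p under 0.01 gave 14. Leaving out single libraries gave 12 to 32, with 0.187 to 1.05% of all genes called higher. The share of all genes at an adjusted p under 0.01 is not given here. For LPS after THC, 2 were called higher (0.0988% of all genes). DESeq2 gave 25 (2.08%), limma-voom 22 (3.16%), no filter 17 (0.505%), the GC trend removed 15 (0.614%) and the length trend removed 4 (0.116%). Veh_LPS replicate 2 and THC_LPS replicate 3 left out together gave 1 (0.12%). The number after THC was 0 with a filter of 1 CPM in 3 libraries (0.0723%), with only the groups compared in the fit (0.00609%) and at an adjusted p under 0.01. With single libraries left out it was 0 to 10, with 0 to 0.608% of all genes called higher. Of the 34 calls averaged over pretreatments 29 held in all 21 alternatives at the same threshold. How many calls over all genes held throughout was not counted. A fit of only the groups compared could not be run for the average or the interaction, which use all 4 groups. With the replicate number as a block the counts were 21 after vehicle (0.5% of all genes), 3 after THC (0.0814%) and 31 on average (1.05%). In the THC comparisons and the interaction they were 0 (0 to 0.0407%). In the LPS comparisons signs turned for 2 members, which no setting called there, while in the THC comparisons and the interaction, where none was called, more members changed sign. After vehicle, Cmpk2 (log2 fold change -0.01) was at 0.026 with DESeq2, 0.018 with voom, 0.027 with median-ratio scaling, 0.033 with no filter and with 1 CPM in 3 libraries, 0.030 with only the groups compared, 0.058 with both libraries left out together, and -0.115 to 0.080 with single libraries left out. Herc6 (-0.01) was likewise at 0.025, 0.062, 0.029, 0.036, 0.037, 0.034 and 0.025, and at -0.207 to 0.158 with single libraries left out. After THC, Cmpk2 was at -0.079 with voom, -0.098 with the GC trend removed and -0.079 with both libraries left out together or without THC_LPS replicate 3, and at -0.079 to 0.164 with single libraries left out. For Cmpk2, LPS averaged over pretreatments gave -0.030, -0.067 and -0.010 under these 3 settings, and -0.028 to 0.077 with single libraries left out. Without THC_Ctrl replicate 1, the median over members for THC without LPS was -0.023 and the mean of THC_Ctrl -0.002, where leaving out single libraries gave -0.023 to 0.142 and -0.002 to 0.077. In the 150 bases upstream of the start the GAS core was found in 5.71% of members with an entry and the ISRE core in 34.3%. The cause of these changes was not tested. Depth was lowest in THC_LPS, which limits what the comparisons with it can show.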
